A study of Mus musculus with 16 samples.

Results

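Lamin A/C peaks in introns were described in adult cardiomyocytes of desmin-intact and desmin-null mice. A lamin A/C peak was taken as a member when its deposited annotation placed it in an intron, when the height of the matching input under it was below 10 reads, and when its assigned gene was not Gata4, Neil2, Mef2c or Tbx5. By this rule 456 of the 2190 peaks in the 4 lamin A/C lists were members. They numbered 48 of 188 peaks for Des+/+ basal, 195 of 831 for Des-/- basal, 110 of 635 for Des+/+ swim and 103 of 536 for Des-/- swim. Cardiomyocytes had been freed by perfusing hearts with enzyme, and the 3-month-old mice had both copies of the desmin gene (Des+/+) or neither (Des-/-). The mice were either left unexercised, here called basal, or had gone through swimming exercise, here called swim. Chromatin was precipitated for lamin A/C and, in matching libraries, for histone H3 acetylated at lysine 27 (H3K27Ac), and each list came from 1 library made from chromatin of several mice. There was therefore no replicate check of any difference between lists and no test between them, and the 95% Wilson intervals given in brackets cover counting error only.

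Lamins A and C are intermediate filament proteins that line the inner face of the nuclear envelope, and a fraction of them lies in the nuclear interior. Chromatin that touches the lamina is on the whole poor in active genes, lies in long domains rather than in sharp sites, and often holds long genes of neurons and clustered gene families that are silent in heart muscle. H3K27Ac marks active promoters and enhancers, so its presence at a gene is a sign of activity there. Desmin, the muscle intermediate filament, is tied to the nuclear envelope through linker proteins of the LINC complex.

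Sequences of 8 members are shown because they carry the kinds of intron the lists held. They are taken from the forward strand of GRCm38 (mm10), and capitals mark bases that lie in a stretch of 100 bases, the length of a read, with another exact copy in the genome. Dock2 and Smc5 name members found in 2 lists in sequence without another exact copy, and Dysf names the highest member of Des+/+ basal outside the genes that recur. Sspn and Jarid2 are shown for a stretch they share, Nrxn3 and Cntnap5a for another, and Gm21190 stands for the duplicated gene families. The choice of Smc5, Sspn and Jarid2 was made after their values were seen.
Dock2, intron 22 of Dock2, chr11:34544780-34545036: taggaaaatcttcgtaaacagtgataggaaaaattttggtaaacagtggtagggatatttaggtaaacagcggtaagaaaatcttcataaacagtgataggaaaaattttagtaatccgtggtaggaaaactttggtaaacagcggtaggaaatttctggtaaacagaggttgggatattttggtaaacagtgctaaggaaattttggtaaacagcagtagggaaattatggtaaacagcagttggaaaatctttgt
Smc5, intron 7 of Mamdc2, chr19:23357354-23357534: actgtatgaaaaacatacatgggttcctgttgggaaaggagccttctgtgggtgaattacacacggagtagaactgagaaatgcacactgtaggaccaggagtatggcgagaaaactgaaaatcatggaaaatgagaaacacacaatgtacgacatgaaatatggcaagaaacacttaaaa
Dysf, intron 4 of Dysf, chr6:84061444-84061683: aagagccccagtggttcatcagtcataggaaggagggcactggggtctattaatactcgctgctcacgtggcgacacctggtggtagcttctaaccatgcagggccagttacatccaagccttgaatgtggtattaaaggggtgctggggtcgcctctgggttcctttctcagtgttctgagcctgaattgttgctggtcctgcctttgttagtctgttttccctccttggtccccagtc
Sspn, intron 2 of Sspn, chr6:145932802-145933101: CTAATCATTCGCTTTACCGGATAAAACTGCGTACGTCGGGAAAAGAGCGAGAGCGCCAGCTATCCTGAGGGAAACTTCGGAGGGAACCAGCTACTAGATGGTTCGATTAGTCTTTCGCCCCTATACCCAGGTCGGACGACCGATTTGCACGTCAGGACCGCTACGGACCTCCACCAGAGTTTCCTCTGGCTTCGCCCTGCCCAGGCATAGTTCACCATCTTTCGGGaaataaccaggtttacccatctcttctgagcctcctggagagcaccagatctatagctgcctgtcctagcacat
Jarid2, intron 4 of Jarid2, chr13:44869816-44870115: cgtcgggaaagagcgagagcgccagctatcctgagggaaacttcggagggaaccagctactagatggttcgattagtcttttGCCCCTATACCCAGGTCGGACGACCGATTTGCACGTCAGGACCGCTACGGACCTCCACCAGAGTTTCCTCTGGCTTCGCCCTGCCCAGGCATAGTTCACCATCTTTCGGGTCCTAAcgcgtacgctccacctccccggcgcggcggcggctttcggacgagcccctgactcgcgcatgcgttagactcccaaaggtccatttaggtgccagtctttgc
Nrxn3, intron 2 of Nrxn3, chr12:88813448-88813664: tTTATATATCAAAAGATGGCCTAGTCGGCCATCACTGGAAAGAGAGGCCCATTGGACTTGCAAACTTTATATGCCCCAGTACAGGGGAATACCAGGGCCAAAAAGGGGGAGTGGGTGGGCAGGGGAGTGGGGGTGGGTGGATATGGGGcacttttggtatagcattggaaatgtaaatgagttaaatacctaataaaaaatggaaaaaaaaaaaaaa
Cntnap5a, intron 2 of 9330185C12Rik, chr1:113897835-113898039: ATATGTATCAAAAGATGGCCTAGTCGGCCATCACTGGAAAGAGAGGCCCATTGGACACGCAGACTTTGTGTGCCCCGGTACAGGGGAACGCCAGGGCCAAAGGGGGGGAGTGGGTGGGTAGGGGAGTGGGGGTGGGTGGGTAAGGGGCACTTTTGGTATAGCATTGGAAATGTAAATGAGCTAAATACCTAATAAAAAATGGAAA
Gm21190, intron 1 of Gm43391, chr5:15464811-15465110: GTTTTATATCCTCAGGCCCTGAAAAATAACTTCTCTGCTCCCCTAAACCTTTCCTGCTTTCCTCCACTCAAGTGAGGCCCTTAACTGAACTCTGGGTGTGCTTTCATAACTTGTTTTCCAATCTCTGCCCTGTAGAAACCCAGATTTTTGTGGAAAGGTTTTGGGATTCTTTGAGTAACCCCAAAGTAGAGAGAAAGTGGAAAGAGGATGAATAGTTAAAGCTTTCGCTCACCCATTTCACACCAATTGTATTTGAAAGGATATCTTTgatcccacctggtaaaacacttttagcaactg

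The Dock2, Smc5 and Dysf stretches held 0 capitals, so a full read inside them has 1 exact place in the genome. Near copies were not counted. The Dock2 stretch was built of short repeats: 68.7% of its bases were equal to the base 24 positions further on, against a median of 28.2% over all spacings from 10 to 80 bases, and the motif TAAACAG stood in it 9 times. In Sspn, 226 of 300 bases were capitals, and its longest exact run in common with the Jarid2 stretch was 110 bases. Jarid2 had 116 capitals of 300 bases. In Nrxn3 147 of 217 bases were capitals and in Cntnap5a 205 of 205, with 51 bases as the longest run in common. The Gm21190 stretch, in which 268 of 300 bases were capitals, lay in a block of copied genes on chromosome 5.

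Introns held a smaller share of the peaks than of the genome. Members made up 25.5% (19.8–32.2%) of the Des+/+ basal list, 23.5% (20.7–26.5%) of Des-/- basal, 17.3% (14.6–20.5%) of Des+/+ swim and 19.2% (16.1–22.8%) of Des-/- swim. Introns more than 1 kb from a transcription start cover 38.4% of the sequenced bases of the chromosomes in the GENCODE annotation. The intervals of all 4 lists lay below that share. The limit on input height removed 19 intron peaks, 13 of them in Des-/- basal and 2 in each other list, and the 4 named genes removed 0 further intron peaks.

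At the limit, 5 members had an input height of 9. They included a Speer4d member of height 26 and an Erdr1x member of height 25 in Des-/- basal, and a Gm21083 member of height 21 in Des+/+ swim. The only intron peak with an input height of exactly 10 was assigned to Speer4d in Des-/- basal (chr5:15630207-15631158), with a height of 29.

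Many members were as low as the lists allow. Height is the deposited number of overlapping reads at a peak, and the smallest height in each list was 8. In Des+/+ basal 34 of 48 members (70.8%, 56.8–81.8%) had a height of 8, and in Des-/- basal 89 of 195 (45.6%, 38.8–52.6%). After swim 56 of 110 Des+/+ members (50.9%, 41.7–60.1%) and 49 of 103 Des-/- members (47.6%, 38.2–57.1%) did. The median height was 8 in both Des+/+ lists and 9 in both Des-/- lists, and the median input height was 1 in Des+/+ basal and 2 in the others. Heights of 10 or more were reached by 5 of 48 members of Des+/+ basal (10.4%, 4.53–22.2%), 70 of 195 for Des-/- basal (35.9%, 29.5–42.8%), 36 of 110 for Des+/+ swim (32.7%, 24.7–41.9%) and 35 of 103 for Des-/- swim (34.0%, 25.6–43.6%). Over all peaks of the lists 51 of 188, 342 of 831, 272 of 635 and 190 of 536 reached that height, in the same order. The share was thus smallest in Des+/+ basal for members and for all peaks alike. Among members its interval did not meet those of the other lists. That interval covers counting error only, and no library was repeated to set this against. The study's methods give 1 approximate read number for all samples, the lists hold no totals per library, and a deeper library reaches a fixed height more easily, so depth and group cannot be told apart in these counts.

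**Figure D1:**
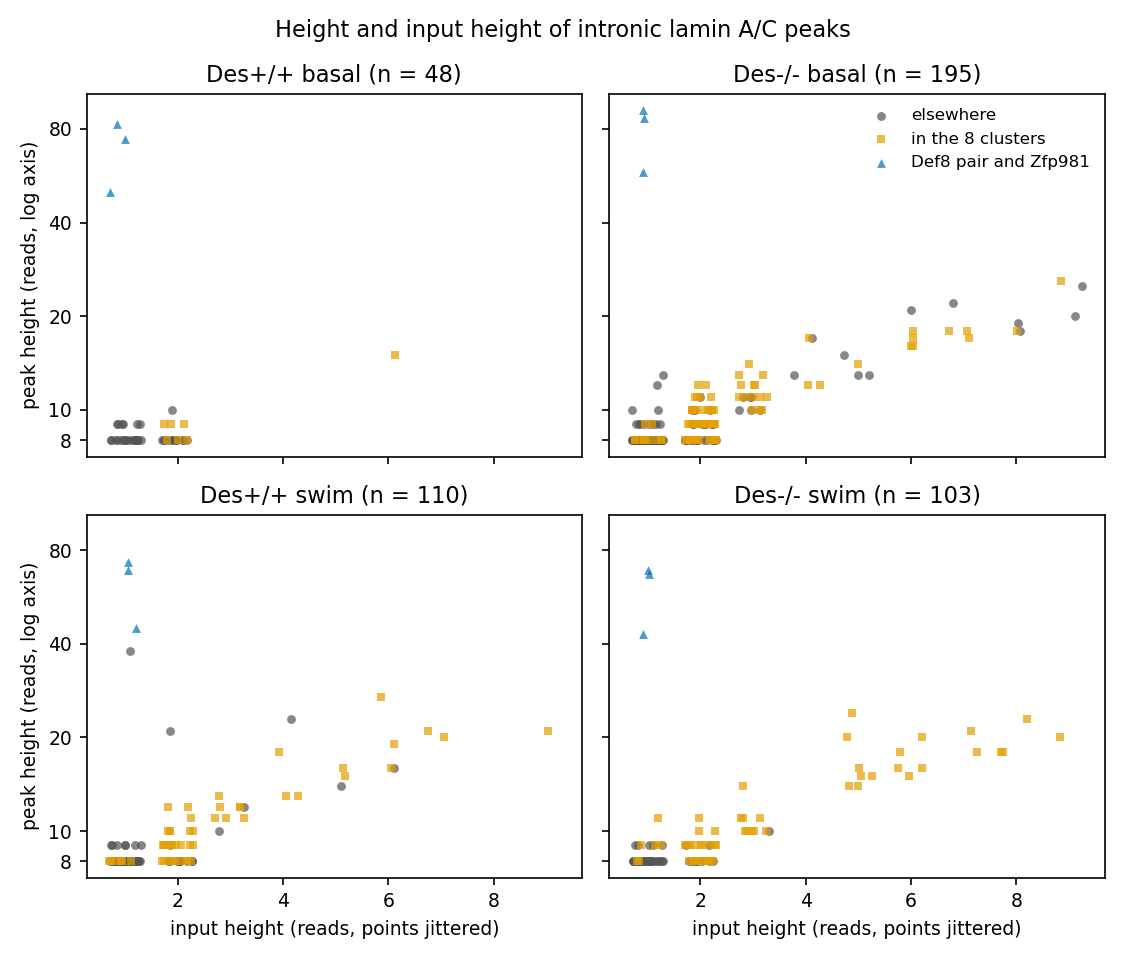
Height (vertical, log axis, reads) against input height (horizontal, reads, jittered) for each member, in 1 panel per list. Most points sit at heights of 8 to 10 with an input of 1 or 2, members of the 8 gene clusters (squares) climb together with the input, and the Def8 members and the highest Zfp981 member of each list (among the triangles) stand at 43 to 92 with an input of 1.

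The highest members were the same 3 regions in all 4 lists. A pair of peaks with Def8 as the nearest gene lay on chromosome 8, inside a single intron of 4384420 bp in a transcript model of Galnt2, which encodes an enzyme that starts O-linked glycosylation. The member at chr8:123433926-123434276 had a height of 83 for Des+/+ basal, 92 for Des-/- basal, 69 for Des+/+ swim and 69 for Des-/- swim. Its partner at chr8:123425723-123426070 had heights of 74, 87, 73 and 67 in that order. In both peaks no more than 6% of the reads that could cover the summit occur once in the genome, and the median read fits 2 places. The third region, chr4:146509022-146509354 in intron 1 of Zfp981, a zinc finger gene, had heights of 50, 58, 45 and 43, and all reads over its summit have 1 exact place.

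The input height under each of these peaks was 1, so none of them was raised in the lamin A/C input. The H3K27Ac peaks that overlapped the Def8 pair in Des-/- basal had heights of 23 and 32 in the H3K27Ac input. The lamin A/C heights of the 3 regions were greatest in Des-/- basal and smallest, or tied for it, in Des-/- swim. The highest peak over Gata4, which the rule leaves out, ran in the same direction, at 259 reads for Des+/+ basal, 290 for Des-/- basal, 257 for Des+/+ swim and 243 for Des-/- swim, with an input of 1 to 4. Whether these regions share a source with the Gata4 peak was not tested. Without them the highest member of Des+/+ basal had a height of 15.

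The next highest member lay in intron 25 of Skint6, a gene of a family that shapes T cells of the skin (chr4:112983874-112984134, nearest gene Skint10). It had a height of 38 and an input of 1, lay wholly inside masked repeats and was found in Des+/+ swim only. Dock2, which encodes an activator of the small GTPase Rac in blood cells, had heights of 18 in Des-/- basal and 23 in Des+/+ swim over its repeat in intron 22, with inputs of 8 and 4, and 0 members in the other lists. Erdr1x on chromosome Y reached 25 in Des-/- basal with an input of 9 and 16 in Des+/+ swim with an input of 6. Dysf, which encodes dysferlin, a protein of muscle membrane repair, had a member of height 10 and input 2 in Des+/+ basal only. The member assigned to Sspn, the gene of sarcospan in the dystrophin complex, reached 21 with an input of 6. That assigned to Jarid2, a partner of the Polycomb repressor, reached 19 with an input of 8. Both were in Des-/- basal only and lay over the stretch these sequences share, part of which has other copies in the genome. Of the summit reads 11% at Sspn and 83% at Jarid2 occur once as an exact match. Near copies were not counted, and the lower-case start of the Jarid2 stretch closely resembles capitals of the Sspn stretch. Whether the reads came from these 2 genes was not tested. Celf2, a gene of RNA splicing, reached 21 with an input of 2 in Des+/+ swim, in masked sequence where 0% of the summit reads occur once. Celf2 and Jarid2 were named after their values were seen.

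Members lay far from transcription starts. The median distance was 15945 bp (95% interval of the median 9644–22643 bp) for Des+/+ basal, 22138 bp (16833–30788 bp) for Des-/- basal, 36106.5 bp (19429–52810 bp) for Des+/+ swim and 16706 bp (11650–29869 bp) for Des-/- swim. These intervals overlapped one another. Peaks up to 957 bp from a start had been annotated as promoter peaks, and the closest member, in Sspn, lay 1017 bp from one. More than 100 kb separated the start from 6 of 48 members of Des+/+ basal (12.5%), 38 of 195 for Des-/- basal (19.5%), 27 of 110 for Des+/+ swim (24.5%) and 24 of 103 for Des-/- swim (23.3%). The farthest was the Cntnap5a member, at -1786717 bp from the start of that gene, where the sign puts it upstream. Intergenic peaks of the same lists lay farther out, with medians from 65815 to 93478.5 bp.

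**Figure D2:**
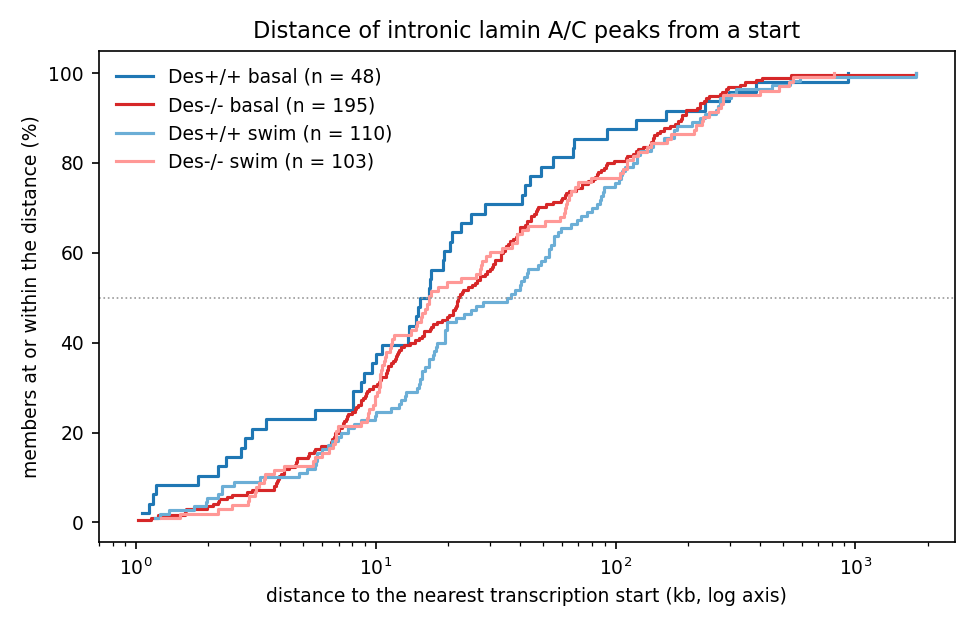
Share of members (vertical, %) at or within a distance (horizontal, kb, log axis) of the nearest transcription start, 1 line per list. The lines cross the dotted 50% level at 15945 bp (Des+/+ basal) to 36106.5 bp (Des+/+ swim).

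The gene with the nearest start was often not the gene whose intron held the peak. Both were the same gene for 34 of 48 members of Des+/+ basal (70.8%, 56.8–81.8%), 104 of 195 for Des-/- basal (53.3%, 46.3–60.2%), 60 of 110 for Des+/+ swim (54.5%, 45.2–63.5%) and 53 of 103 for Des-/- swim (51.5%, 41.9–60.9%). The members assigned to Smc5, a subunit of a chromosome maintenance complex, lay in Mamdc2, and those assigned to Tspan12 lay in Kcnd2, which encodes a potassium channel. All 4 members assigned to Uqcrb, a gene of respiratory complex III, lay over 200 kb from its start, in introns of Zfp640 and Gm40988. Of all 456 members, 149 (32.7%) were in the first intron of the annotated transcript. The host was protein coding for 81.2% of members of Des+/+ basal, 62.1% for Des-/- basal, 66.4% for Des+/+ swim and 56.3% for Des-/- swim. Those protein-coding hosts were long genes: their median length was 127469 bp, 154353 bp, 373710 bp and 110164 bp in the same order, against 17403 bp for all 21951 protein-coding genes of the annotation. A long gene offers more intron for a peak to fall in, and the difference was not adjusted for that.

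Members gathered in 8 clusters of related genes. A cluster was set, after the positions were seen, as members no more than 500 kb from the next with at least 10 in all, and 206 of the 456 members (45.2%) fell in one. In Des+/+ basal 8 of 48 members did (16.7%, 8.70–29.6%), against 88 of 195 for Des-/- basal (45.1%, 38.3–52.1%), 53 of 110 for Des+/+ swim (48.2%, 39.1–57.4%) and 57 of 103 for Des-/- swim (55.3%, 45.7–64.6%). The clusters were set on the members of all lists together, so lists with more members had more say in where they lay. A low share in Des+/+ basal, the smallest list, is thus partly built in. The share of all lamin A/C peaks in the clusters was not counted. Outside the clusters the lists held 40, 107, 57 and 46 members.

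The largest cluster, with 51 members, lay at chr4:145416460-147759103 among zinc finger genes such as Zfp980, Zfp981 and Zfp982 and had a median height of 11. Of its members 1 was from Des+/+ basal, 19 from Des-/- basal, 21 from Des+/+ swim and 10 from Des-/- swim. The densest was the Speer4 cluster at chr5:15464698-15703794, where 39 members lay within 239 kb. The Speer4 genes belong to a family of glutamate-rich proteins of the testis. Its median height of 18 and median input height of 6 were the greatest of the 8 clusters, and the 4 lists gave 1, 12, 10 and 16 members in the order above. The highest in Des-/- swim were a Gm21083 member of height 24 with an input of 5 and a Speer4c member of height 23 with an input of 8.

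A second zinc finger cluster on chromosome 13 around Zfp998 held 30 members, of which 0 came from Des+/+ basal. On chromosome 1, 28 members lay among the Sp140 and Sp110 genes, which encode nuclear body proteins of leukocytes, and Des-/- basal gave 15 of them. The Potefam genes on chromosome 8 held 19 members, 13 of them from Des-/- basal. A pair of clusters on chromosome 7 with 14 members each lay among Vmn2r genes, which encode pheromone receptors of the vomeronasal organ. The last, on chromosome 14 around Gm9732, held 11.

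**Figure D3:**
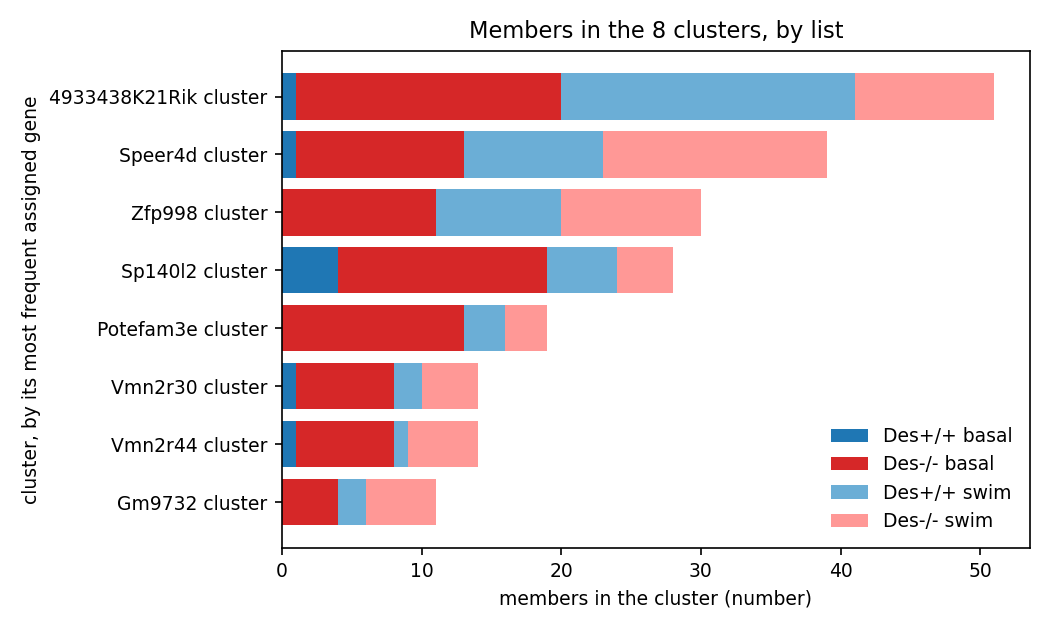
Number of members (horizontal) in each of the 8 clusters (vertical, by the gene assigned most often), split by list. Des+/+ basal adds at most 4 members to any cluster, and Des-/- basal adds the most to those on chromosomes 1, 7, 8 and 13.

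Copied sequence was common at the summits. A summit was counted as repeated when fewer than 50 of the 100 reads that could cover it occur once in the genome. This measure counts exact copies only and was added after the data were seen. By this 7 of 48 members of Des+/+ basal were repeated (14.6%, 7.25–27.2%), 86 of 195 for Des-/- basal (44.1%, 37.3–51.1%), 38 of 110 for Des+/+ swim (34.5%, 26.3–43.8%) and 43 of 103 for Des-/- swim (41.7%, 32.7–51.4%). Over all peaks of the lists the shares were 18.6%, 34.9%, 29.1% and 33.6%. Among H3K27Ac peaks in introns of the matching libraries they were 0.732%, 1.11%, 0.634% and 1.89%. The aligner places a read that fits several copies at 1 of them, so the gene named for such a peak is uncertain, and this touches many genes of the clusters. In the Potefam cluster 17 of 19 summits were repeated, and in the Speer4 cluster 19 of 39.

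Beyond the clusters, 14 members had summit reads that fit a median of over 100 places each. All 14 lay wholly in masked repeats, and 13 had heights of 8 or 9. They included a member in Luzp2 in Des-/- basal and one in Fgf14, a fibroblast growth factor family gene, in Des+/+ swim. Members were poorer in G and C than acetylated introns. Their median G and C content was 42.5% for Des+/+ basal, 42.2% for Des-/- basal, 40.6% for Des+/+ swim and 42.2% for Des-/- swim, while that of H3K27Ac intron peaks was 48.0% to 48.4%. Over all lamin A/C peaks of the lists it was 43.1%, 42.6%, 42.1% and 42.0%, so the low content was not particular to members.

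Recurrence of genes and regions was counted for the members only, and the same counts over all lamin A/C peaks were not made. Overlap with another list was low for all lamin A/C peaks too. It held for 20.7%, 15.8%, 17.2% and 17.7% of them in the order of the lists, against 10.4%, 9.74%, 15.5% and 17.5% of members. The members were assigned to 264 genes, of which 210 had members in 1 list, 34 in 2 lists, 16 in 3 and 4 in all 4. Of the 54 genes in more than 1 list, 34 belonged to the clusters, and 16 had members that overlapped between lists. For the other 38 the members of different lists lay apart. The 456 members formed 426 separate regions, of which 402 were in 1 list, 21 in 2, 0 in 3 and 3 in 4, and those 3 were the Def8 pair and the Zfp981 region described above.

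The genes with members in all lists were Def8, Zfp981, Speer4d and Vmn2r44. The highest Speer4d member of each list had a height of 15 for Des+/+ basal, 26 for Des-/- basal, 27 for Des+/+ swim and 21 for Des-/- swim, each over a different part of the same intron of Gm21847, though lower Speer4d members did overlap between lists. The highest Vmn2r44 members had heights of 9, 8, 10 and 10 in that order. Genes in 3 lists were Gm21083, Speer4c, Gm21190, Zfp982, Rex2, Potefam3a, Zfp998, Gm9732, Sp140l2, Vmn2r31, Gm7762, Uqcrb and Zfp997, which lacked a member for Des+/+ basal, Vmn2r30 and Gm7609, which lacked one for Des+/+ swim, and Sp140l1, which lacked one for Des-/- swim. Heights of their highest members ran from 8 for Zfp997 in each of its lists to 24 for Gm21083 in Des-/- swim. All 16 belonged to the clusters.

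Of the 10 highest genes in 2 lists, 4 lay outside the clusters, namely Dock2, Erdr1x, Cntnap5a and Nrxn3. Cntnap5a is a contactin-associated protein gene and Nrxn3 encodes a neurexin of the synapse. The Cntnap5a member, in an intron of the non-coding gene 9330185C12Rik, had a height of 20 and an input of 9 in Des-/- basal and 14 and 5 in Des+/+ swim. Nrxn3 had a member of height 9 in Des+/+ basal (chr12:89144149-89144368) and, at another place, one of height 17 in Des-/- basal (chr12:88813448-88813664). The rest were 4930572O03Rik, Speer4cos, Smarca5-ps, Sp140, 4933438K21Rik and Zfp980. The Zfp980 members of height 11 in Des-/- basal and 13 in Des+/+ swim were the highest of 3 in each list.

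**Figure D4:**
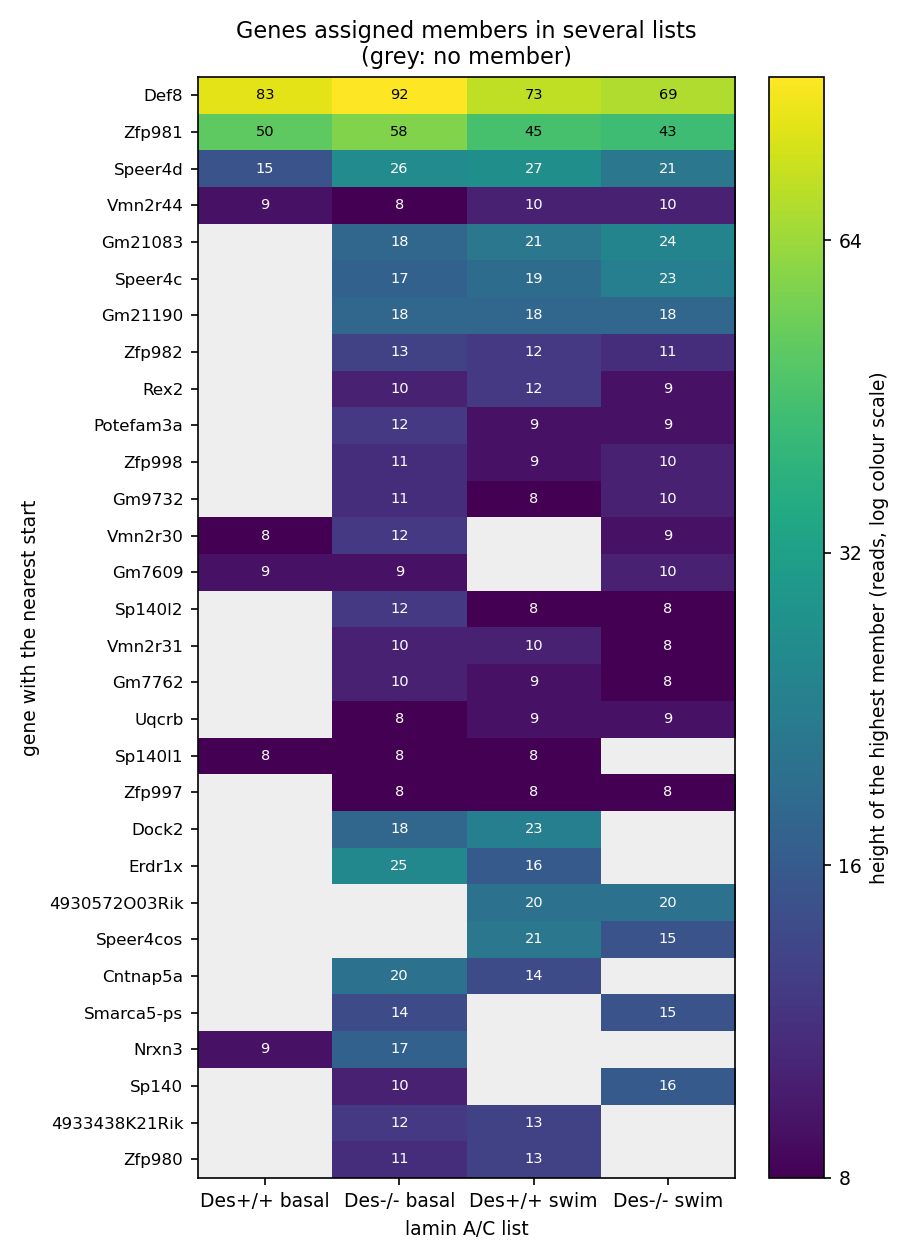
Height of the highest member (colour and number, reads, log colour scale) in each list (columns) for the 20 genes in 3 or 4 lists and the 10 highest genes in 2 lists (rows, by nearest start). Grey cells hold no member, and only Def8 and Zfp981 pass 40.

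Overlap between lists was counted for each member against every lamin A/C peak of the other 3 lists, with 1 bp as the least overlap. In Des+/+ basal 5 of 48 members were overlapped (10.4%, 4.53–22.2%), against 20.7% of all lamin A/C peaks of that list. In Des-/- basal 19 of 195 were (9.74%, 6.33–14.7%), against 15.8%. In Des+/+ swim 17 of 110 were (15.5%, 9.88–23.4%), against 17.2%, and in Des-/- swim 18 of 103 (17.5%, 11.3–25.9%), against 17.7%. The share of the whole list lay inside the members' interval in every list but Des-/- basal, where it lay just above it. Among members of height 10 or more the shares were 60% (of 5), 20%, 36.1% and 37.1% in the order of the lists, against 52.9%, 24.9%, 26.5% and 35.8% of all lamin A/C peaks of that height. Without the Def8 pair and the Zfp981 region, 4.44% of Des+/+ basal members were overlapped.

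Pair by pair, members overlapped as follows. Between Des+/+ basal and Des-/- basal 4 members overlapped, 8.33% of the first list and 2.05% of the second, against 15.4% and 3.49% of all peaks of these lists. Between Des+/+ swim and Des-/- swim 7 did, 6.36% and 6.80%, against 7.72% and 9.14%. Between Des+/+ basal and Des+/+ swim 3 did, 6.25% and 2.73%, against 14.4% and 4.25%, and these were the Def8 pair and the Zfp981 region. Between Des-/- basal and Des-/- swim 11 did, 5.64% and 10.7%, against 7.82% and 12.1%, and apart from those 3 regions all lay in the clusters. The pairs that differ in both genotype and exercise stood close to these. Between Des-/- basal and Des+/+ swim 10 did, 5.13% and 9.09%, against 9.75% and 12.4%, and between Des+/+ basal and Des-/- swim 4 did, 8.33% and 3.88%, against 11.2% and 3.92%. The first of these pairs had 31 assigned genes in common, and Des-/- basal and Des-/- swim had 30. Outside the clusters, where 5.00% of Des+/+ basal, 4.67% of Des-/- basal, 8.77% of Des+/+ swim and 4.35% of Des-/- swim members were overlapped by a peak of another list, the regions shared by members of more than 1 list were the Def8 pair and those of Dock2, Cntnap5a and Smc5. The Smc5 members had a height of 10 in both Des-/- basal and Des+/+ swim.

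H3K27Ac was found at the assigned gene of about as large a share of members as of all lamin A/C peaks in 3 lists and of a smaller share in Des+/+ swim. A gene counted as acetylated when any H3K27Ac peak of the library of the same genotype and condition was assigned to it. In Des+/+ basal this held for 17 of 48 members (35.4%, 23.4–49.6%), against 27.7% of all lamin A/C peaks of the list. In Des-/- basal it held for 63 of 195 (32.3%, 26.1–39.2%), against 29.8%. In Des+/+ swim it held for 27 of 110 (24.5%, 17.5–33.4%), against 34.2%, just above the interval, and in Des-/- swim for 30 of 103 (29.1%, 21.2–38.5%), against 33.2%. All lamin A/C peaks include promoter peaks, of which 58.3% had an acetylated gene in Des+/+ swim. Among intergenic lamin A/C peaks the shares were 18.9%, 25.6%, 29.4% and 31.8% in the order of the lists. These lay below the members' interval in both basal lists and inside it in both swim lists. The H3K27Ac libraries assigned peaks to 9430, 9954, 7166 and 7053 genes in the same order, so fewer genes could count after swim. Among all protein-coding genes of RefSeq, 39.0%, 41.2%, 29.7% and 29.4% were acetylated.

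When the gene that holds the intron was asked instead, the shares fell. A host counted only if an H3K27Ac peak was assigned to it by nearest start, so a peak in its intron could be missed. The fall may thus be partly built in. Host shares over all lamin A/C peaks were not counted. H3K27Ac was found at the host of 14 of 48 members of Des+/+ basal (29.2%, 18.2–43.2%), 38 of 195 for Des-/- basal (19.5%, 14.5–25.6%), 13 of 110 for Des+/+ swim (11.8%, 7.04–19.2%) and 12 of 103 for Des-/- swim (11.7%, 6.79–19.3%). Outside the clusters the shares by nearest gene were 42.5% for Des+/+ basal, 34.6% for Des-/- basal, 19.3% for Des+/+ swim and 17.4% for Des-/- swim. Inside them the nearest gene was acetylated for 0 of 8 members of Des+/+ basal, which allows a share of up to 37.5%, and for 29.5%, 30.2% and 38.6% of members in the other lists in order. Neither set of shares was counted over all lamin A/C peaks, and fewer genes carried H3K27Ac after swim than in basal. The Speer4 cluster gave 25 of the cluster members whose gene was acetylated. Dysf, Sspn and Jarid2 were acetylated in the library of their member, and Dock2, Nrxn3, Cntnap5a, Zfp981 and Vmn2r44 were not in any list where they had one. Among members of height 10 or more the share by nearest gene was 60% (of 5), 45.7%, 27.8% and 51.4% in the order of the lists, against 37.3%, 39.8%, 45.2% and 53.2% of all lamin A/C peaks of that height. With an input below 5 it was 16.5% for Des-/- swim. Counting only H3K27Ac peaks of height 30 or more, it was 14.6%, 15.9%, 2.73% and 5.83% in the order of the lists. The input and H3K27Ac height settings were not applied to all lamin A/C peaks.

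**Figure D5:**
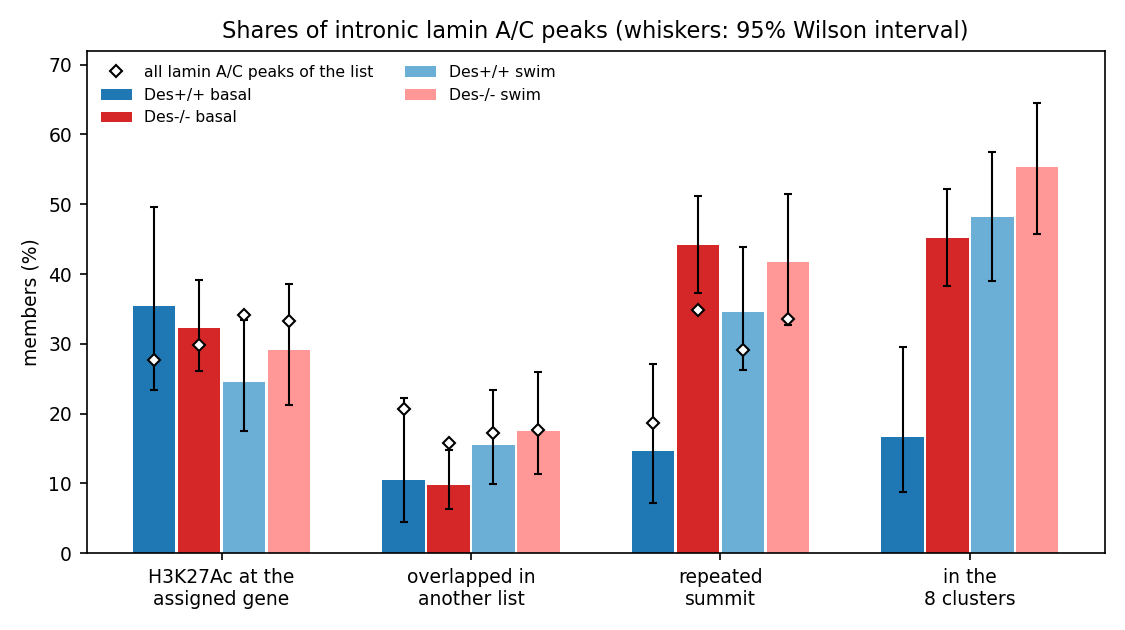
Shares of members (vertical, %) in each list for 4 measures, with 95% Wilson intervals as whiskers and, for the first 3 measures, the share of all lamin A/C peaks of the list as a diamond. The H3K27Ac shares run from 24.5% to 35.4%, and the shares of repeated summits and of members in the clusters are lowest in Des+/+ basal.

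H3K27Ac peaks of the matching library overlapped 11 members. For Des+/+ basal 0 of 48 did, which allows a share of up to 6.25%, for Des-/- basal 5 of 195 (2.56%, 1.10–5.86%), for Des+/+ swim 1 of 110 (0.909%, 0.161–4.97%) and for Des-/- swim 5 of 103 (4.85%, 2.09–10.9%). Over all lamin A/C peaks the shares were 2.13%, 3.73%, 2.52% and 4.1% in that order, and each lay within the members' interval or limit. Those of Des-/- basal were the Def8 pair, an Erdr1x member of height 13, a Cntnap5b member of height 8 and a member of height 8 in the first intron of Igfbp7, which encodes a secreted binding protein of insulin-like growth factors. The acetylation peaks at the Def8 pair had heights of 43 and 61 with input heights of 23 and 32. The single member of Des+/+ swim was in intron 2 of Itga2, a collagen receptor subunit, with a height of 8 beside an acetylation height of 18. All 5 of Des-/- swim lay in the Speer4 cluster, with lamin A/C heights of 15 to 24 and acetylation heights of 15 to 22.

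The lists of genes examined held members mainly among genes of neural adhesion and the synapse. These lists were chosen with earlier results of these data known, so their shares are description only and no test of enrichment. Of 96 such genes, 28 (29.2%) held a member in an intron or had one assigned, 5 for Des+/+ basal, 10 for Des-/- basal, 8 for Des+/+ swim and 11 for Des-/- swim. Over all 21896 protein-coding genes the share was 1.11%. The neural genes were long, with a median of 798132 bp, and per length the gap was smaller: their introns held 34 members, 0.397 per Mb of gene, against 0.271 per Mb over all protein-coding genes and 0.185 per Mb with the clusters left out. Of the 34 members 24 had a height of 8, 8 had a repeated summit, 2 had a host with H3K27Ac, and 0, which leaves out the Cntnap5a member in 9330185C12Rik, were overlapped in another list.

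The highest of these genes was Cntnap5a, by its member in 9330185C12Rik, followed by Nrxn3. Both of these high members lay wholly inside masked repeats. The member inside Cntnap5a itself, in Des+/+ swim, had a height of 8. Grid1, which encodes a glutamate receptor-like protein, had a member of height 12 in Des+/+ swim with a repeated summit. Members of height 9 lay in Rbfox1, a splicing regulator, for Des+/+ basal, in Dpp6, a potassium channel partner, for Des-/- basal, in Fgf14 and in Nrg3, a neuregulin, for Des+/+ swim, and in Lrrtm4, Sgcz and Csmd1 for Des-/- swim. Lsamp, Luzp2 and Lrp1b had members of height 8 in both Des-/- lists, at different places in each list, and 0 in the Des+/+ lists. They were named after their values were seen. In Des-/- basal, the largest list, 0% of the Lsamp and Luzp2 summit reads occur once. Nrxn3 had members in both basal lists and Csmd1 in both swim lists. Cntnap5a had them in Des-/- basal and Des+/+ swim, so no genotype pattern is read from this.

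Lists of heart muscle and lamina genes are short, so their counts are given beside the share of 1.11% over all protein-coding genes, and neither was adjusted for gene length. Of 31 sarcomere genes 0 held a member in any list, which allows a share of up to 9.68%. Of 31 ion channel and calcium handling genes 2 did: Trdn, the gene of triadin at the calcium release site, with a height of 8 for Des+/+ basal, and Kcnd2, with a height of 9 for Des+/+ swim and 8 for Des-/- swim. These 2 were 6.45% of their list. Of 23 genes of the lamina, the LINC complex and the cytoskeleton 2 did, or 8.70%. Syne1, which encodes the LINC protein nesprin-1, held a member of height 8 in intron 98 in Des+/+ basal. Lbr, the lamin B receptor, was the nearest gene to a member of height 10 in intron 56 of Dnah14 in Des-/- basal, 77106 bp from its start and with a repeated summit.

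None of the marker genes of cardiomyocytes (14 genes), endothelial cells (12), fibroblasts (12), leukocytes (12) or smooth muscle and pericytes (10) held a member in any list. The share over all protein-coding genes was 1.11%, so 0 in lists of this size sets them apart in no way. As a check of the cell type, 92.9% of the cardiomyocyte markers carried H3K27Ac in each of the first 3 lists and 57.1% did in Des-/- swim. Endothelial markers carried it at 91.7%, 91.7%, 83.3% and 75% in the order used above, fibroblast markers at 8.33%, 41.7%, 0% and 8.33%, smooth muscle and pericyte markers at 20%, 20%, 20% and 10.0%, and leukocyte markers at 0% in all 4, where 0 of 12 allows a share of up to 25.0%. The endothelial shares lay near the cardiomyocyte shares in basal, below them in Des+/+ swim and above them in Des-/- swim. This check therefore does not tell these cell types apart. The part of other cell types in the members was not tested.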

How the data were processed

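ChIP-seq libraries for lamin A/C and H3K27Ac, each with its own input, were examined, 16 samples in all with 8 peak lists. Reads had been aligned by the authors to GRCm38 with Bowtie2 2.4.4, sorted with SAMtools 1.13 and, after peak calling per library against its input by a script of their own, annotated with ChIPseeker 1.36.0, per the submitters' processing notes. The authors deposited, for each peak, a height in the ChIP and in the input (signal, coverage in reads), a ratio (fold, computed as height plus 1 over input plus 1), a p-value from the caller and a signed distance in bp to the nearest start, which is recorded here as a score. The deposited p-values were not used. The methods give 1 approximate read number for all samples, and exact totals per library were not used here. Lists start at a height of 8 for lamin A/C and 15 for H3K27Ac.

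Each member was matched to its host by Entrez number (GENCODE annotation of GRCm38). Reads of 100 bases over each summit were looked up in GRCm38 on both strands to count exact copies, a step checked against a brute-force search and tested on simulated data. Overlap meant at least 1 bp. Shares carry 95% Wilson intervals, and a count of 0 is given the limit that 3 counts set. Python 3.11.15, numpy 2.4.6, pandas 2.3.3, scipy 1.17.1, numba 0.67.0 and matplotlib 3.10.9 were used. With 1 library per group no test between groups was made.

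The members and gene lists were chosen with earlier results of these data known, and the uniqueness measure, the clusters and the settings that use them were added after the data were seen. Named were the 5 highest members of each list, genes in 3 or more lists and the 10 highest in 2 lists, up to 8 genes per gene list by height, up to 5 members per list that overlap H3K27Ac, and up to 3 members on each side of the input limit. Other genes are said to have been chosen after their values were seen.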

Additional observations from a re-analysis of the deposited data

Results flagged for a closer look

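For 5 measures of the members the difference between Des-/- and Des+/+ had one sign in basal and the other after swim. Each rests on 1 library per group, so these differences were not tested. The number of members was 147 higher in Des-/- than in Des+/+ in basal and 7 lower after swim, where the value was -7. The share of the list that the members made up differed by -2.07 percentage points in basal and by 1.89 after swim. The median distance to the nearest start differed by 6193 bp in basal and by -19400.5 bp after swim. The share of members overlapped in another list differed by -0.673 percentage points in basal and by 2.02 after swim. The share with H3K27Ac at the assigned gene differed by -3.11 percentage points in basal and by 4.58 after swim. Of these signs, only those of the number of members and of the swim distance were kept under every alternative that gave them. With equal numbers of the highest members the basal differences were -5738 bp in distance, 25 points in overlap and 8.33 points in H3K27Ac. With an input height under 5 the swim differences were -2.59 points in overlap and -6.53 points in H3K27Ac. The basal overlap difference was also 7.02 points for peaks within 1 kb, 0.940 with unique sequence only and 3.89 without the Def8 members and the highest Zfp981 member. The share of the list differed by 10.7 points in basal with a minimum height of 10 and by -0.145 after swim with unique sequence only. The H3K27Ac share differed by 1.31 points in basal with H3K27Ac heights of 30 or more and by -0.0535 after swim by the gene that holds the intron. The median height was 1 read higher in Des-/- in both conditions, a difference of 0 in both with an input height under 5, of 0 after swim with unique sequence only, of -1 after swim with equal numbers and of -38 in basal with a minimum height of 10.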

How the results depend on the processing

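Of 151 values recomputed under an alternative, 89 stayed within a limit and 62 moved past it. The limit was the counting interval for shares and medians, and a fixed fold change for counts of members and genes. Of 72 differences between Des-/- and Des+/+ within a condition, recomputed under an alternative, 55 kept their sign, 14 turned and 3 became 0. Values follow the order Des+/+ basal, Des-/- basal, Des+/+ swim, Des-/- swim unless lists are named. With a minimum height of 10 the lists kept 5, 70, 36 and 35 members, with median heights of 50, 12, 13 and 15, median distances of 8710, 12096, 15838.5 and 10845 bp, and overlapped shares of 60%, 20%, 36.1% and 37.1%. The share of the list was then 9.80% for Des+/+ basal, 20.5% for Des-/- basal and 13.2% for Des+/+ swim, the H3K27Ac share was 60% for Des+/+ basal, 45.7% for Des-/- basal and 51.4% for Des-/- swim, and 26 genes were in more than 1 list instead of 54. With the 48 highest members of each list, 24 genes were in more than 1 list. In Des-/- basal, Des+/+ swim and Des-/- swim the median height was then 13, 12 and 11, the median distance 10207, 17387.5 and 10975.5 bp, and the overlapped share 35.4%, 29.2% and 31.2%. The members' share among the 188 highest peaks was 17.02% for Des-/- basal and 14.4% for Des+/+ swim, and the H3K27Ac share was 43.8% for Des-/- basal and 45.8% for Des-/- swim. With an input height under 5 the overlapped share was 6.25% for Des-/- basal and 9.41% for Des-/- swim, the share of the list 15.9% for Des-/- swim and the H3K27Ac share 16.5% there. With members of unique sequence only, an alternative chosen after seeing the data, Des-/- basal, Des+/+ swim and Des-/- swim kept 109, 72 and 60 members, or 13.1%, 11.3% and 11.2% of the list, the median distance in Des-/- swim was 29905.5 bp, and 31 genes were in more than 1 list. Without the Def8 members and the highest Zfp981 member, also chosen after seeing the data, the overlapped share of Des+/+ basal was 4.44%. With peaks within 1 kb of each other counted as overlapping, it was 17.4% in Des-/- basal and 29.1% in Des-/- swim. The H3K27Ac share by the gene whose intron holds the peak was 19.7%, 11.8% and 11.8% in Des-/- basal, Des+/+ swim and Des-/- swim, among members with a known host, and with H3K27Ac promoter peaks only it was 18.5%, 8.18% and 15.5%. With H3K27Ac peaks of height 30 or more it was 14.6%, 15.9%, 2.73% and 5.83% in the 4 lists. The causes of these moves were not tested beyond what each alternative leaves out. No limit on input height, keeping the 4 excluded genes and a larger required overlap moved 0 values past these limits. No paired analysis was possible because each group had 1 library. Exact read totals per library were not at hand, which limits any comparison of numbers of members between lists.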
